A study of Mus musculus with 10 samples.

Results

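Messenger RNA for the CC chemokines Ccl2, Ccl3, Ccl4, Ccl5, Ccl6, Ccl7, Ccl8, Ccl9 and Ccl11 and for the chemokine receptor Ccr2 was measured in visceral white adipose tissue (WAT) of mice. These 10 genes, 9 ligands and 1 receptor, were picked by symbol from the 47937 genes in the count files, after matching versioned Ensembl identifiers with the version dropped. The 10 libraries came from C57BL/6 mice that were wild type (Mof+/+) or heterozygous (Mof+/-) for Mof, the gene Kat8, which encodes a histone acetyltransferase. On standard diet (SD), 3 Mof+/+ and 3 Mof+/- mice were sampled at 8 weeks of age. On high fat diet (HFD), 2 Mof+/+ and 2 Mof+/- mice were sampled at 27 weeks of age after 20 weeks of feeding according to the series' design text, while the published text gives a longer feeding period. Diet and age therefore cannot be told apart. Heterozygosity was present in the whole animal and not in adipocytes alone, each library is described as a biological replicate, and no pooling of animals was stated.

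CC chemokines are small secreted proteins named for a pair of adjacent cysteines, and they attract leukocytes through G protein-coupled receptors. Ccl2 and Ccl7 bind Ccr2, the receptor by which inflammatory monocytes leave the bone marrow and enter inflamed tissue, Ccl8 is a further monocyte and lymphocyte attractant, and Ccl11 (eotaxin) attracts eosinophils through Ccr3. Ccl3, Ccl4 and Ccl5 attract monocytes and T cells, with Ccl3 and Ccl5 signalling through Ccr1, while Ccl6 and Ccl9 are rodent chemokines made by macrophages and other myeloid cells. In obese adipose tissue the Ccl2 and Ccr2 pair is known for its part in macrophage recruitment.

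The 9 ligand genes lie on chromosome 11 of GRCm38 (GENCODE M21 annotation) in a pair of blocks. The first runs on the plus strand through Ccl2 (chr11:82035571-82037453), Ccl7 (chr11:82045712-82047525), Ccl11 (chr11:82057823-82062955) and Ccl8 (chr11:82115185-82116799). The second begins 1408979 bases further on and holds Ccl5 (chr11:83525778-83530518), Ccl9 (chr11:83572919-83578636), Ccl6 (chr11:83587882-83593087) and Ccl3 (chr11:83647844-83649355) on the minus strand and Ccl4 (chr11:83662584-83664683) on the plus strand. Ccl9 and Ccl6 are neighbours with 9246 bases between them. Ccr2 lies on chromosome 9 (chr9:124101950-124113557, plus strand). All 10 are annotated as protein-coding genes. Ccl2 overlaps Gm17268 on the other strand, which had 0 counts in all 10 libraries, and Ccl6 overlaps E230016K23Rik, which had 0 to 48 counts. The library kit does not mark strand, so reads of such partners cannot be told apart where exons overlap. No run of 50 bases was shared between transcripts of different members.

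Promoter sequences were taken from RefSeq (GRCm38.p6), in which 5 of the 10 members had an entry. The 250 bases before the annotated start are shown for Ccl6 and Ccl9, the adjacent pair with the highest levels in HFD Mof+/+ WAT, and for Ccl8 of the other block. They are written from 5′ to 3′ on the gene's own strand, and capitals mark matches, on either strand, to 5 motifs. These are the TATA box, searched as TATAAA. They are also the motif of AP-1, a factor of activated cells, searched as TGANTCA, and the core of PU.1, a factor of myeloid cells, searched as GAGGAA. The last are the motif of C/EBP, searched as TTNNGNAA, and the NF-kB consensus.
Ccl8 (chr11:82114935-82115184, plus strand): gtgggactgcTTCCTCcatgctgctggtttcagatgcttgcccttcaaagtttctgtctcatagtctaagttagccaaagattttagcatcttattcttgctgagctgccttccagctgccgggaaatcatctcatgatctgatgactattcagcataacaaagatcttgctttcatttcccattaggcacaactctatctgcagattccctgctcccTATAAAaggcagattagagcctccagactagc
Ccl9 (chr11:83578637-83578886, minus strand): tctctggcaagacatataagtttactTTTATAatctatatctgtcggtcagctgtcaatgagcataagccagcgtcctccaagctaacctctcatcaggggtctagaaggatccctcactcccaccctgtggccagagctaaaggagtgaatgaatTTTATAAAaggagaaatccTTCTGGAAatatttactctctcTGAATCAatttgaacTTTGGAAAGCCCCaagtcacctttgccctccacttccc
Ccl6 (chr11:83593088-83593337, minus strand): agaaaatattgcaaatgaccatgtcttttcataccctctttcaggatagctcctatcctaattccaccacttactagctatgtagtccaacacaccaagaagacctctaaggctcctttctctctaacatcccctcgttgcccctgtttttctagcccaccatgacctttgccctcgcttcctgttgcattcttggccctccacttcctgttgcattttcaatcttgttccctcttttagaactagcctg
The window of Ccl9 held TATAAA from 92 to 87 bases before the start and again, on the minus strand, at 2 further places, of which 1 overlaps it. It also held an AP-1 match, 2 C/EBP matches and an NF-kB match that overlaps the second of these. The window of Ccl8 held TATAAA from 32 to 27 bases before the start and a PU.1 core. None of the 5 motifs was found in the Ccl6 window. Among 32841 promoter windows of this length, 12.4% held TATAAA, 6.75% the AP-1 motif, 23.3% the PU.1 core, 36.9% the C/EBP motif and 7.25% the NF-kB motif. The longest run that the Ccl6 and Ccl9 windows shared was 13 bases (gccctccacttcc). Such matches describe letters in a window and are not sites of binding.

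Counts on genes came to 7301119 to 7829250 in SD Mof+/+, 6724618 to 17171947 in SD Mof+/-, 15483115 and 16014992 in HFD Mof+/+, and 1044355 and 5531786 in HFD Mof+/- libraries. Levels are given as CPM, the count of a gene scaled to a common total of counts on genes. The first HFD Mof+/- library stood apart: it was the shallowest, 26.9% of its counts were mitochondrial, and 5.62% came from 10 skeletal muscle markers, against 0.136% in the other HFD Mof+/- library and at most 0.00897% in the remaining 8, so that both HFD Mof+/- libraries lay above all others in these markers. In it, a gene with 0 counts could be present at up to 2.87 CPM (3 counts), against 0.175 to 0.542 CPM in the other 9. The column headings inside the files name the other genotype for SD Mof+/+ replicate 3 and SD Mof+/- replicate 3; groups follow the sample labels here. Kat8 was 20.4 to 21.5 CPM in SD Mof+/+, 11.5 to 18.8 CPM in SD Mof+/-, 18.1 and 19.2 CPM in HFD Mof+/+, and 20.1 and 10.5 CPM in HFD Mof+/-. The first HFD Mof+/- library thus did not show a lower level, in a value that rested on 21 counts. In the edgeR test by genotype, Kat8 did not pass on SD (log2 fold change -0.22, adjusted p = 0.736) or on HFD (log2 fold change 0.063). Ddx3y, Eif2s3y, Kdm5d and Uty, 4 genes of the Y chromosome, were at 0 in all 3 SD Mof+/- libraries, where Xist, which is transcribed from the inactive X chromosome, reached 46.1 to 139 CPM, while Xist was at 0 in all SD Mof+/+ and HFD libraries. The published methods speak of male mice, which these 3 libraries go against. On SD, genotype and sex thus cannot be told apart. The 7 adipocyte markers summed to 14419 to 50057 CPM, lowest in the first HFD Mof+/- library, so that the labelled tissue carried its defining genes. P-values measure the spread between the libraries of a group.

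Levels of different genes were compared per kilobase of exon. In SD Mof+/+ WAT the order by group mean ran from Ccl5 (56.4 ± 81.1 CPM per kb, SD, n = 3) over Ccl6 (51.0 ± 7.98), Ccl11 (43.1 ± 3.84), Ccl8 (29.2 ± 14.7) and Ccl9 (27.6 ± 9.0) to Ccr2 (9.59 ± 1.94), Ccl7 (6.62 ± 3.83), Ccl2 (5.85 ± 0.668), Ccl4 (0.774 ± 1.34) and Ccl3 (0.477 ± 0.826). The first place of Ccl5 came from 1 library, and neighbours in this order lay within each other's spread, apart from Ccl9 and Ccr2 and from Ccl2 and Ccl4. In HFD Mof+/+ WAT, Ccl6 was first (382 ± 96.8 CPM per kb, n = 2), followed by Ccl9 (235 ± 59.7), Ccl8 (160 ± 20.3), Ccl7 (145 ± 14.5), Ccl2 (139 ± 20.4) and Ccl11 (124 ± 16.6). The libraries of Ccl6 lay above those of Ccl9, and those of Ccl9 above those of Ccl8, without overlap, while from Ccl8 to Ccl11 neighbours lay within each other's spread. In SD Mof+/- WAT the order began with Ccl11 (148 ± 30.6 CPM per kb, n = 3), Ccl8 (115 ± 112) and Ccl6 (108 ± 18.4), and in HFD Mof+/- WAT with Ccl6 (128 ± 27.6, n = 2), Ccl8 (124 ± 32.8) and Ccl9 (98.9 ± 28.7), again within each other's spread. Ccr2 was ninth of the 10 in both Mof+/- groups (2.26 ± 0.793 on SD and 1.64 ± 0.517 on HFD), and sixth and eighth in the Mof+/+ groups. Ccl3 and Ccl4 were low throughout, with 0 to 144 counts a library, and had 0 counts in 3 and 4 of the 10 libraries.

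**Figure D1:**
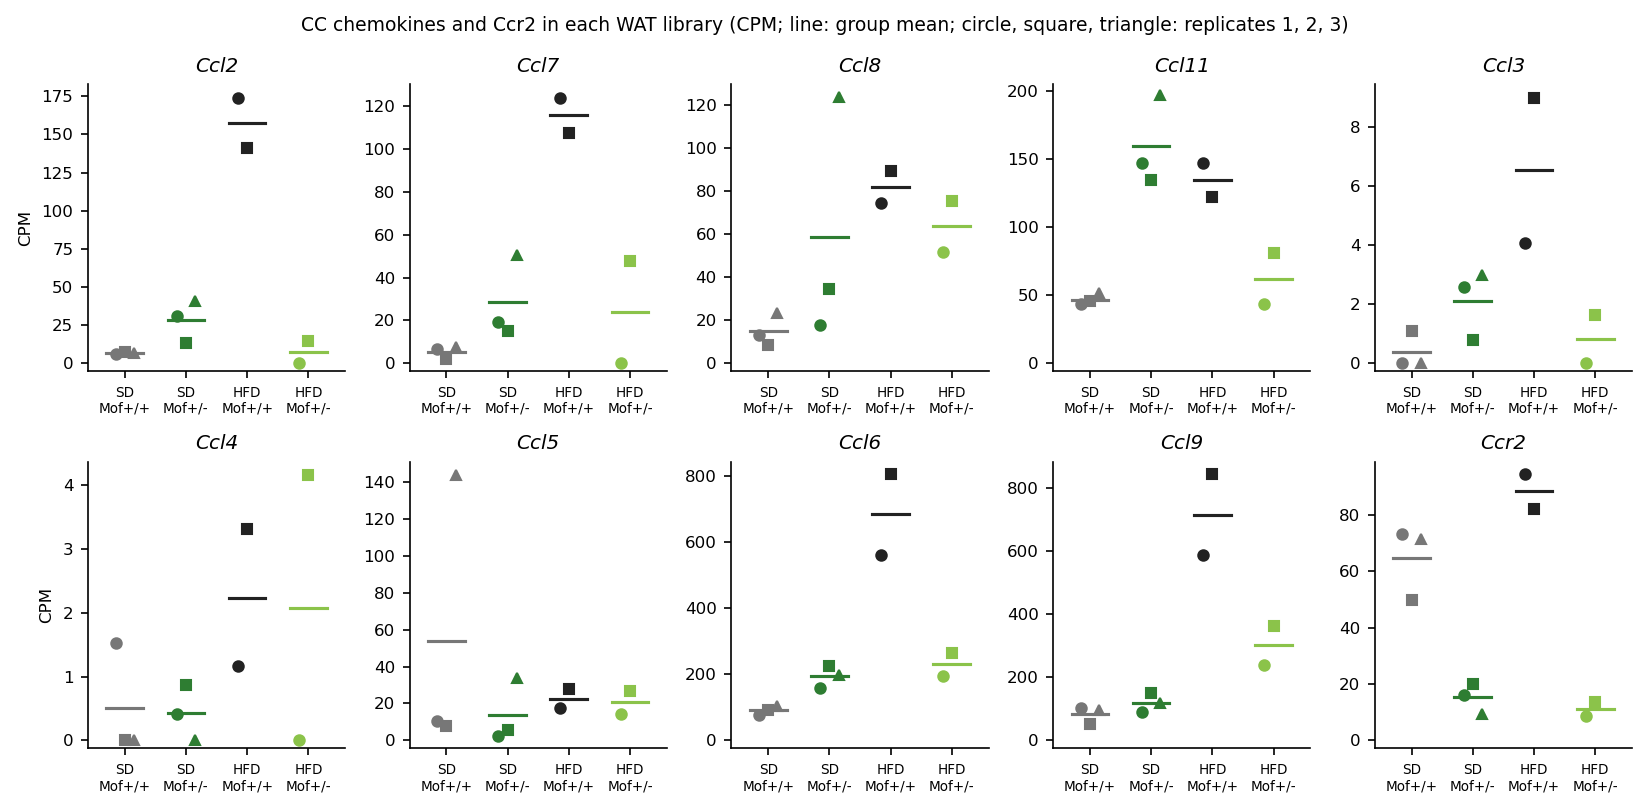
Levels of the 10 genes in CPM (linear axis) in each library, with a panel per gene and its own axis; horizontal lines are group means, and circles, squares and triangles mark replicates 1, 2 and 3. The 2 HFD Mof+/+ libraries lie above every SD Mof+/+ library for Ccl2, Ccl7, Ccl8, Ccl11, Ccl3, Ccl6, Ccl9 and Ccr2, while Ccr2 lies at 8.62 to 20.1 CPM in all 5 Mof+/- libraries and at 49.7 to 94.7 CPM in all 5 Mof+/+ libraries.

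The comparison of genotypes on SD asks how WAT of Mof+/- and Mof+/+ mice differed at 8 weeks of age. Sex differed along with genotype here. Ccl2, Ccl11 and Ccl6 were higher in Mof+/- than in Mof+/+ WAT, 5.49-, 4.43- and 2.73-fold, and the receptor gene Ccr2 was 3.33-fold lower. So the ligand Ccl2 and its receptor differed between these groups in opposite directions. These 4 were the members called, at an adjusted p under 0.05, of the 8 tested (Ccl3 and Ccl4 fell under the filter on low counts). Of all 13864 genes tested, 5.24% were called, 3.33% as higher and 1.91% as lower. In bulk tissue, fewer cells of a type and less RNA per cell cannot be told apart.

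Of the ligands in the first block, Ccl2 stood at 6.13, 7.53 and 6.32 CPM in Mof+/+ and at 30.8, 13.1 and 40.6 CPM in Mof+/- WAT. Each Mof+/- library was above each Mof+/+ library. The log2 fold change was 2.46 (SE 0.49, adjusted p = 0.0363). Ccl7 stood at 6.77, 1.78 and 7.36 CPM against 19.4, 15.1 and 50.7 CPM, again without overlap, but missed the threshold (log2 fold change 2.82, SE 0.68, adjusted p = 0.0507). Ccl8 stood at 12.9, 8.63 and 23.2 CPM against 17.6, 34.3 and 124 CPM. The ranges overlapped, the third Mof+/- library alone accounted for the highest value, and the log2 fold change of 2.39 (SE 0.73) was not called (adjusted p = 0.0851).

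Ccl11, the eosinophil attractant, stood at 43.2, 45.5 and 51.2 CPM in Mof+/+ and at 147, 135 and 197 CPM in Mof+/- WAT, without overlap and with a log2 fold change of 2.15 (SE 0.26, adjusted p = 0.0122). Markers of eosinophils were low: the 7 of the list summed to 13.3 to 25.5 CPM in SD Mof+/+ and 11.3 to 15.02 CPM in SD Mof+/- libraries, and Ccr3, the receptor of Ccl11, was at 3.45, 0 and 3.23 CPM against 0.408, 0 and 0 CPM.

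Of the myeloid chemokines, Ccl6 stood at 76.5, 92.9 and 105 CPM against 159, 225 and 197 CPM, with no overlap and a log2 fold change of 1.45 (SE 0.25, adjusted p = 0.0300). Its neighbour Ccl9 stood at 102, 52.3 and 97.8 CPM against 91.0, 150 and 117 CPM. These ranges overlapped, and the log2 fold change of 0.87 (SE 0.32) was not called (adjusted p = 0.129). As background, groups did not overlap for 9.71% of all genes as higher and 30.6% as lower in Mof+/- WAT; among the members tested, 4 were higher without overlap and 1, Ccr2, lower.

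Ccl5, which attracts T cells and monocytes, had the widest error of the members tested. It stood at 10.5, 7.94 and 144 CPM in Mof+/+ and at 2.10, 5.37 and 34.1 CPM in Mof+/- WAT, so that the third library of either group was the highest of its group. Its log2 fold change was -1.54 (SE 1.26, adjusted p = 0.480), and it was 0.98 without the third Mof+/+ library. In that library the 10 T and NK cell markers summed to 414 CPM, against 17.5 and 39.5 CPM in the other 2 SD Mof+/+ libraries and 7.05 to 28.1 CPM in SD Mof+/-. Cd3e was at 42.6 CPM and Cd8a at 69.7 CPM there, the B cell gene Ms4a1 at 53.0 CPM, and the lymph node homing receptor Ccr7 at 60.9 CPM. The part of these cells in the level of Ccl5 was not tested. Ccl3 (0, 1.10 and 0 CPM against 2.56, 0.767 and 2.97 CPM) and Ccl4 (1.53, 0 and 0 CPM against 0.408, 0.863 and 0 CPM) were too low to be compared at this depth. A count of 0 allowed up to 0.383 to 0.411 CPM in the SD Mof+/+ libraries.

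Ccr2 stood at 73.2, 49.7 and 71.6 CPM in Mof+/+ and at 16.1, 20.1 and 9.52 CPM in Mof+/- WAT. The lowest Mof+/+ library was above the highest Mof+/- library, and the log2 fold change was -1.74 (SE 0.33, adjusted p = 0.0328). Csf1r, the receptor for the macrophage growth factor, was not called: it stood at 293, 185 and 237 CPM against 255, 169 and 130 CPM. After the TMM scaling of the test, which CPM does not include, its means were 211 and 208. The log2 fold change was -0.02 (adjusted p = 0.971). As a share of Csf1r in the same library, Ccr2 was 24.9, 26.8 and 30.2% in Mof+/+ and 6.29, 11.9 and 7.31% in Mof+/- WAT. Per unit of Ccr2, Ccl2 was 0.0838, 0.152 and 0.0883 in Mof+/+ and 1.92, 0.652 and 4.27 in Mof+/- WAT.

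Each of these calls depended on single libraries. Without Mof+/+ replicate 1, Mof+/+ replicate 2 or Mof+/- replicate 2, none of the tested members was called (19, 35 and 17 of all genes were), and without Mof+/+ replicate 3 only Ccl11 was, beside 0.512% of all genes. Without Mof+/- replicate 1 there were 5, beside 6.89% of all genes, and without Mof+/- replicate 3 there were 4, beside 4.51%. The log2 fold changes without 1 library ran from 2.04 to 2.82 for Ccl2, from 1.92 to 2.29 for Ccl11, from 1.34 to 1.60 for Ccl6 and from -1.95 to -1.52 for Ccr2. Without both of the SD libraries numbered 3, a choice made after seeing the data, Ccl11 (1.97, adjusted p = 0.0185), Ccl6 (1.48, adjusted p = 0.0386) and Ccr2 (-1.46, adjusted p = 0.0497) were called, and Ccl2 was not (1.99, adjusted p = 0.0697), beside 4.08% of all genes called. Grouped by the column headings, no gene of any kind was called (0%), and Ccl2, Ccl7 and Ccl8 turned to lower values in Mof+/- WAT (-0.19, -0.64 and -1.13). Fold changes on SD also moved with transcript length: across the genes tested, Spearman's rho between the 2 was -0.43. Longer genes thus tended to lie lower in Mof+/- WAT. The median tested gene had 4321 exonic bases, the ligands have 511 to 3045, and Ccr2 has 6760. Ccl2 and Ccr2 thus lie on opposite sides of the median length. With a length offset, Ccl11 (1.18, adjusted p = 0.0311) and Ccr2 (-1.45, adjusted p = 0.0385) were called, while Ccl2 (1.49, adjusted p = 0.0936) and Ccl6 (0.83, adjusted p = 0.0733) were not, beside 2.37% of all genes called.

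The comparison of diets in Mof+/+ WAT asks which genes differed between HFD and SD in wild-type mice, whose age also differed. All 5 libraries carried transcripts of the Y chromosome. The 6 ligands that rose ran from 3.15-fold for Ccl11 to 25.8-fold for Ccl2, and Ccl7 rose nearly as far as Ccl2. Those 6 of the 10 members, all of which were tested, compare with 9.75% of 14939 genes called, 6.02% as higher. The receptor gene Ccr2 was 1.49-fold higher without passing the test.

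Ccl2 reached 174 and 141 CPM in HFD Mof+/+ WAT, where the 3 SD Mof+/+ libraries had not exceeded 7.53 CPM. Its log2 fold change was 4.69 (SE 0.21, adjusted p = 5.97e-04). No other gene had a smaller adjusted p in this comparison. Ccl7 reached 124 and 108 CPM (log2 fold change 4.57, SE 0.48, adjusted p = 0.00518) and Ccl8 74.6 and 89.3 CPM (2.59, SE 0.38, adjusted p = 0.0121). All 3 were above every SD Mof+/+ library. Ccl11 reached 147 and 122 CPM (log2 fold change 1.65, SE 0.18, adjusted p = 0.00559), where SD Mof+/- WAT had 135 to 197 CPM.

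Ccl6 rose to 562 and 808 CPM (log2 fold change 3.03, SE 0.24, adjusted p = 0.00303) and Ccl9 to 588 and 845 CPM (3.22, SE 0.32, adjusted p = 0.00467). The ratio of Ccl6 to Ccl9 in the 2 libraries was 0.956 and 0.956, against 0.753, 1.77 and 1.07 in SD Mof+/+ and 1.75, 1.495 and 1.68 in SD Mof+/- WAT. Ccl3 reached 4.07 and 8.99 CPM and lay above the SD libraries but was not called (log2 fold change 4.25, SE 1.60, adjusted p = 0.136). Ccl4 (1.16 and 3.31 CPM) and Ccl5 (17.4 and 27.7 CPM) overlapped with SD. The log2 fold change of Ccl5 was -1.12 (adjusted p = 0.581), and it was 1.40 without the third SD Mof+/+ library. Ccr2 stood at 94.7 and 82.3 CPM, above all SD Mof+/+ libraries, with a log2 fold change of 0.58 (SE 0.21, adjusted p = 0.133). In all, 8 members were higher without overlap, as were 21.0% of all genes.

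Macrophage markers moved beside these genes. Of 15, 10 rose and 1, the scavenger receptor gene Cd163, fell (log2 fold change -2.44, adjusted p = 0.00543), with a list median of 2.21 against -0.04 over all genes tested. Trem2 (4.96), Itgax (4.17), Cd68 (3.36) and Itgam (3.35), the receptor, integrin and lysosomal genes of adipose tissue macrophages, rose most in log2 fold change. The summed level of the list was 1345 to 2310 CPM in SD Mof+/+, 2108 to 2442 CPM in SD Mof+/-, 6360 and 8962 CPM in HFD Mof+/+, and 1969 and 4142 CPM in HFD Mof+/- WAT. Marco was at 0 in 4 libraries, none of them HFD Mof+/+, and the macrophage gene Adgre1 was at 0 in the first HFD Mof+/- library. The part of macrophage number in the rise of the ligands was not tested. As a share of Csf1r, Ccl6 was 26.1 to 50.1% in SD Mof+/+ and 179 and 180% in HFD Mof+/+ WAT, and Ccr2 was 30.2 and 18.3%.

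**Figure D2:**
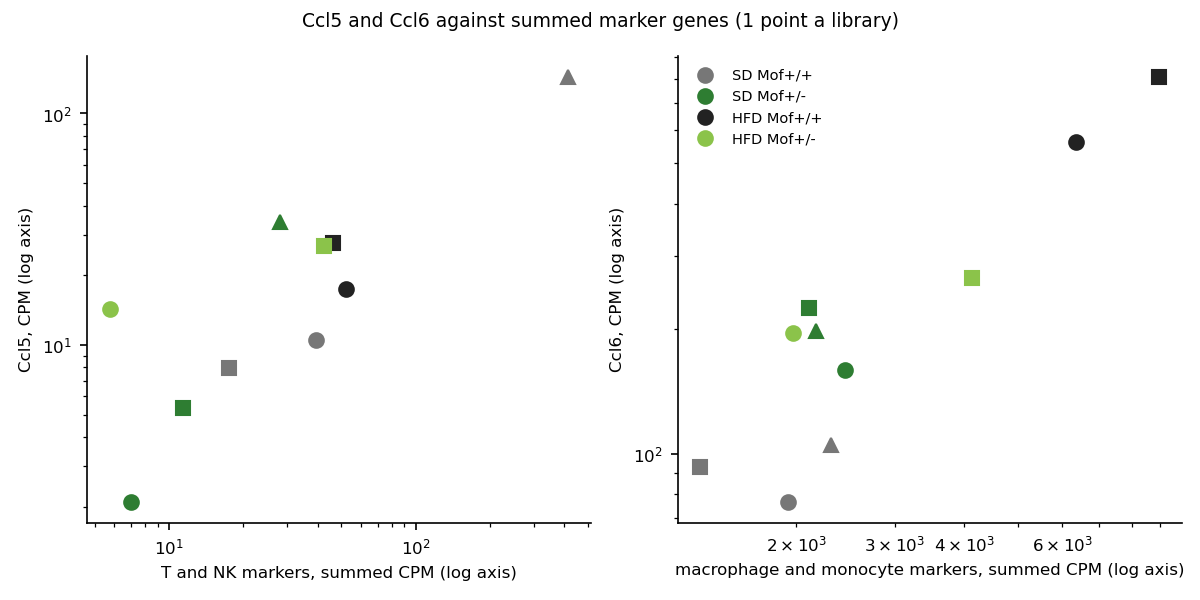
Ccl5 against 10 summed T and NK cell markers (left) and Ccl6 against 15 summed macrophage and monocyte markers (right), both in CPM on log axes, with 1 point a library (circle, square, triangle: replicates 1, 2, 3). The third SD Mof+/+ library has both the highest Ccl5 (144 CPM) and the highest T and NK sum (414 CPM), and the 2 HFD Mof+/+ libraries have both the highest Ccl6 and the highest macrophage sums.

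Leaving out 1 library of the Mof+/+ diet comparison left 4 to 7 members called, while the share of all genes called ran from 0.384% to 14.9%. A fit of all 10 libraries called 4 members, without Ccl7 and Ccl8, and 0.893% of all genes. Ccl8 and Ccl11 were the calls lost without HFD Mof+/+ replicate 2, and Ccl8 was lost without SD Mof+/+ replicate 1 or HFD Mof+/+ replicate 1. Ccl3 was gained without SD Mof+/+ replicate 2. Ccl2, Ccl7, Ccl6 and Ccl9 were called with any one library left out. With the length offset all 6 remained called, beside 7.06% of all genes, and with the column headings as groups no gene at all was called (0%).

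The comparison of diets in Mof+/- WAT asks the same of heterozygous mice, with sex also differing between the groups. None of the 9 members tested was called, and neither was any of the 13610 genes (0%), although 8.57% had an unadjusted p under 0.05 and DESeq2 called 477 genes, none of them a member. The highest ratio was for Ccl9, which stood at 239 and 363 CPM on HFD, above the 3 SD Mof+/- libraries (log2 fold change 1.32, SE 0.41, adjusted p = 0.460). Ccl11 stood at 43.1 and 80.6 CPM on HFD, below the SD Mof+/- libraries (-1.40, SE 0.46, adjusted p = 0.473). Those 2 had an unadjusted p under 0.05 and did not overlap, against 9.88% of all genes higher and 17.7% lower without overlap. The other 7 overlapped between diets, among them Ccl6 (0.24, 95% interval -0.67 to 1.15), Ccl8 (0.05, -1.81 to 1.92) and Ccl2 (-1.90, -4.67 to 0.88). Ccr2 (-0.45, -2.31 to 1.42), Ccl7 (-0.32, -3.24 to 2.60), Ccl3 (-1.18, -5.16 to 2.79) and Ccl5 (0.49, -2.22 to 3.20) overlapped as well, Ccl4 fell under the filter on low counts, and the median of the members tested was -0.32 beside -0.26 for all genes. Without the second HFD Mof+/- library, Ccl2 was called as lower, together with 13.8% of all genes, from a library in which Ccl2 had 0 counts.

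The comparison of genotypes on HFD asks how WAT of heterozygous mice differed after the diet. No gene of 14120 was called (0%), against 12.3% with an unadjusted p under 0.05, so none of the 10 members was. Of the 10, 8 had values below 0 on the log2 scale, and 7 lay below HFD Mof+/+ without overlap, which 45.6% of all genes did. The median of the members was -1.10 and that of all genes tested -0.24.

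Ccl2 stood at 0 and 14.8 CPM in HFD Mof+/- WAT against 174 and 141 CPM in HFD Mof+/+ WAT. The 0 came from the shallow library, where its 95% Clopper-Pearson interval reached 3.53 CPM, which is still below every HFD Mof+/+ value. The log2 fold change was -3.96 (SE 1.20, unadjusted p = 0.0229, adjusted p = 0.279). Ccl7 stood at 0 and 47.9 CPM against 124 and 108 CPM (-1.97, adjusted p = 0.737), and Ccl8 at 51.7 and 75.4 CPM against 74.6 and 89.3 CPM (-0.05, 95% interval -0.89 to 0.79). Ccl11 at 43.1 and 80.6 CPM was below both Mof+/+ libraries (-0.81, adjusted p = 0.503).

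Ccl6 stood at 195 and 265 CPM in HFD Mof+/- against 562 and 808 CPM in HFD Mof+/+ WAT (log2 fold change -1.25, SE 0.37, unadjusted p = 0.0212, adjusted p = 0.278). Ccl9 stood at 239 and 363 CPM against 588 and 845 CPM (-0.94, adjusted p = 0.463). Both were below both Mof+/+ libraries. Ccl3 (0 and 1.63 CPM), Ccl4 (0 and 4.16 CPM) and Ccl5 (14.4 and 26.8 CPM) had log2 fold changes of -2.41, 0.37 and 0.18, with adjusted p of 0.678, 0.949 and 0.951.

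Ccr2 stood at 8.62 and 13.6 CPM in HFD Mof+/- against 94.7 and 82.3 CPM in HFD Mof+/+ WAT. The value in the shallow library rested on 9 counts (95% Clopper-Pearson interval 3.94 to 16.4 CPM). The log2 fold change was -2.66 (SE 0.41, unadjusted p = 0.00158, adjusted p = 0.278). DESeq2 called Ccr2 (adjusted p = 0.0356), beside 1.37% of all genes. As a share of Csf1r, which stood at 72.8 and 193 CPM against 314 and 450 CPM, Ccr2 was 11.8 and 7.04% in HFD Mof+/- and 30.2 and 18.3% in HFD Mof+/+ WAT. Without the shallow library, in which muscle and mitochondrial transcripts were abundant, edgeR called Ccl2 (-3.24), Ccl7, Ccl6 (-1.20) and Ccr2 (-2.54), in a fit that called 27.2% of all genes and in which the remaining library was assumed to vary like the Mof+/+ pair. Without the other HFD Mof+/- library 7 members and 47.9% of all genes were called, and without HFD Mof+/+ replicate 2 only Ccl2 was, beside 0.718% of all genes.

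**Figure D3:**
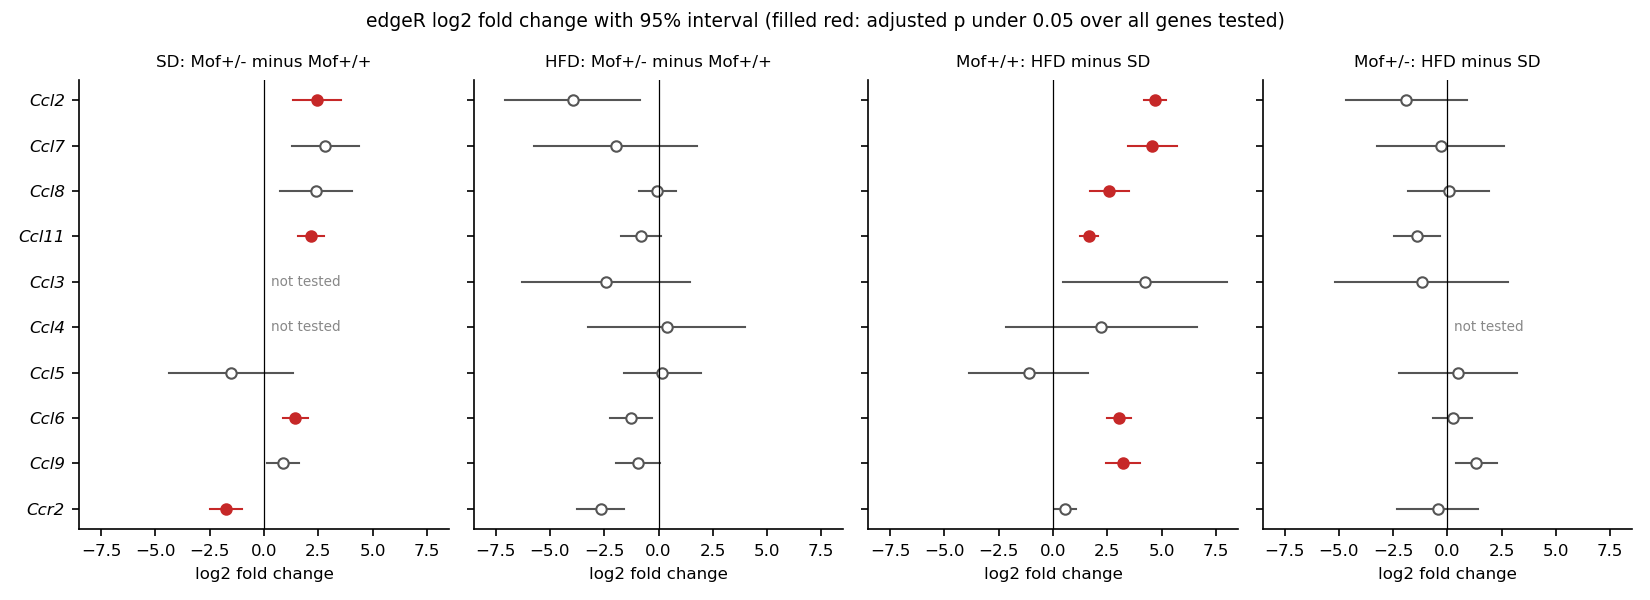
Log2 fold changes from edgeR with 95% intervals for the members in the 4 comparisons; filled red points have an adjusted p under 0.05 over all genes tested. On SD, Ccl2, Ccl11 and Ccl6 are called to the right of 0 and Ccr2 to the left, 6 ligands are called to the right for HFD in Mof+/+ WAT, and no member is called in the other 2 panels.

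Because the 4 comparisons share libraries, the difference between the diet responses of the genotypes was tested directly, as a genotype by diet interaction over all 10 libraries. Ccl11 was the only member called (log2 difference -3.05, SE 0.47, adjusted p = 0.0453), among 14 of 15897 genes (0.0881%, of which 0.0629% lay below 0). It was 3.15-fold higher on HFD than on SD in Mof+/+ WAT and 2.63-fold lower in Mof+/- WAT, where the diet comparison did not call it. Ccl6 lay at the threshold (-2.80, SE 0.44, adjusted p = 0.05003, not called), and Ccl2 (-6.45, SE 1.12, adjusted p = 0.0780), Ccl7 (-4.83, SE 1.47, adjusted p = 0.247) and Ccl9 (-1.91, SE 0.53, adjusted p = 0.203) missed it. Ccl8 (-2.53) and Ccl3 (-5.39) also lay below 0, with adjusted p of 0.346 and 0.437, while Ccl5 (1.63, adjusted p = 0.749) and Ccl4 (0.096, adjusted p = 0.99988) lay above it. The value of Ccr2 was -1.01 (SE 0.56, adjusted p = 0.493). The interaction carries the sex difference of the SD groups. The call of Ccl11 was lost without any one of the 3 SD Mof+/+, the 3 SD Mof+/- or the 2 HFD Mof+/+ libraries, while without the first HFD Mof+/- library 3 members (Ccl2, Ccl11 and Ccl6) were called, beside 0.256% of all genes tested. Without the second, 5 members were called, beside 17.7% of all genes tested, whose median log2 difference was then -1.55.

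**Figure D4:**
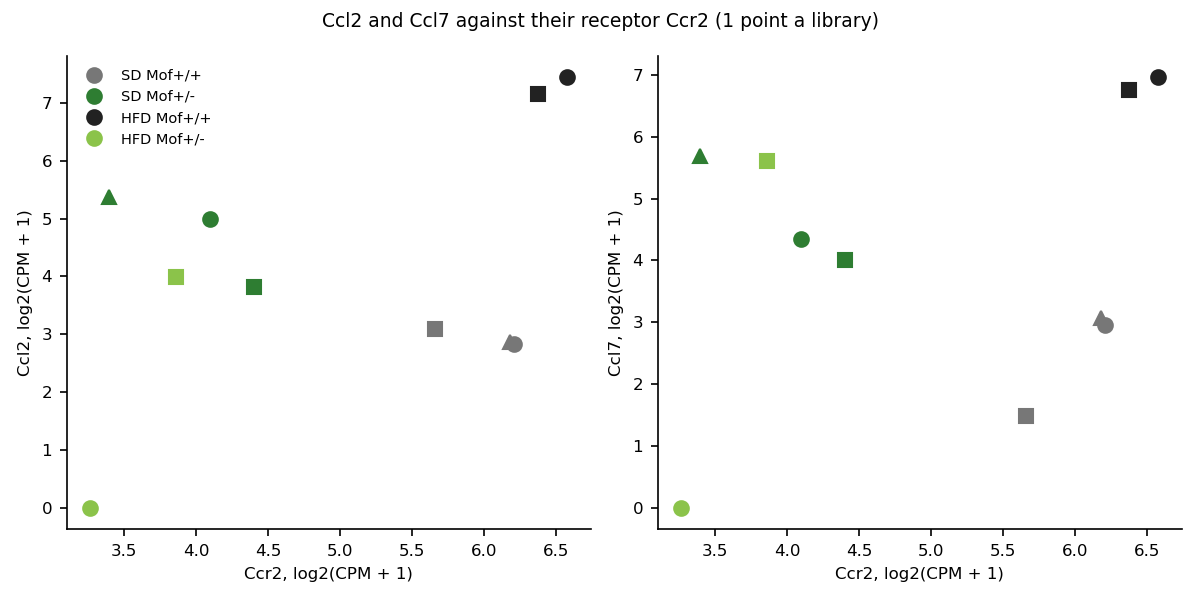
Ccl2 (left) and Ccl7 (right) against their receptor Ccr2, as log2 of CPM plus 1, with 1 point a library (circle, square, triangle: replicates 1, 2, 3). HFD Mof+/+ libraries are high on both axes, SD Mof+/+ libraries have high Ccr2 and low ligand, SD Mof+/- libraries have low Ccr2 and more ligand, and the first HFD Mof+/- library has 0 counts of both ligands.

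Over the 10 libraries, the levels of the members fell into sub-patterns, which are described without a test. Pearson's r of log2 CPM was 0.95 between Ccl2 and Ccl7 and 0.92 between Ccl6 and Ccl9, which lie beside each other on chromosome 11. Ccl2 and Ccl8, of the same block, had an r of 0.27, and Ccl2 and Ccr2 an r of 0.42. Among 11307 genes with a mean of at least 50 counts, those most like Ccl2 were Eif1a (r = 0.97), Pitpna (0.96) and Pid1 (0.96), and those most like Ccl7 were Mogat2 (0.98), Rab5c (0.97) and Sap18 (0.97). For Ccl6 they were Calm2 (0.98), Cd300a (0.97) and Creg1 (0.97), and for Ccl9 Rab29 (0.98), the lipid droplet gene Plin2 (0.97) and Ubd (0.97). For Ccl8 they were Vamp8 (0.98), Atp6v1f (0.96) and Psmb10 (0.96), for Ccl11 Isoc2b (0.97), Zbtb8os (0.97) and C130026I21Rik (0.96), for Ccl5 Nfkbib (0.91), Dapp1 (0.89) and Nsmce3 (0.89), and for Ccr2 Arglu1 (0.95), Kctd12 (0.95) and Lims1 (0.94). The points share depth and group structure, and the first HFD Mof+/- library weighs on each.

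The other genes of the chemokine system were taken as lists. Of 11 other CC ligands, 4 were tested on SD and none was called by genotype (list median 0.97, all genes -0.07); 7 were tested in each of the HFD genotype and Mof+/+ diet comparisons, with none called. Ccl24, another eotaxin, stood at 16.5, 13.1 and 25.6 CPM in SD Mof+/+ and at 26.7, 25.8 and 65.1 CPM in SD Mof+/- WAT (log2 fold change 1.49, adjusted p = 0.0932). Ccl12, a further Ccr2 ligand of the mouse, was at 0 to 6.10 CPM in all 10 libraries.

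Test counts for the list of 14 other CC and atypical receptors are not reported here. Ccr1 stood at 14.6 and 17.1 CPM in HFD Mof+/+ and at 0 and 1.27 CPM in HFD Mof+/- WAT (adjusted p = 0.403). Ackr3, an atypical receptor and the most abundant of this list, was at 53.8 to 133 CPM on SD and 29.7 to 45.6 CPM on HFD.

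Of 20 other chemokines and receptors, 13 were tested on SD, with 1 called in each direction. The neutrophil attractant Cxcl2 stood at 1.02, 0.548 and 1.55 CPM in Mof+/+ and at 12.1, 2.49 and 29.1 CPM in Mof+/- WAT (log2 fold change 4.20, adjusted p = 0.0466), and Cx3cl1, the ligand of Cx3cr1, at 16.1, 29.2 and 19.1 CPM against 4.66, 2.21 and 1.04 CPM (-2.66, adjusted p = 0.0460). Cxcl1 stood at 0, 3.01 and 3.61 CPM against 27.7, 8.92 and 78.5 CPM and missed the threshold (4.53, adjusted p = 0.0542). No gene of this list was called by diet or by genotype on HFD, where 16 were tested in either the Mof+/+ diet or the HFD genotype comparison. Of 20 inducers of CC chemokines (cytokines, Toll-like receptor and NF-kB genes), 13 were tested on SD and 1 was called, Nfkb1 as lower in Mof+/- WAT (84.9, 75.5 and 122 CPM against 41.4, 24.3 and 18.4 CPM, log2 fold change -1.39, adjusted p = 0.0491). Of the other inducers, Nfkbia stood at 56.3, 44.5 and 102 CPM against 107, 80.7 and 214 CPM (1.38, adjusted p = 0.101), Rela was at 90.0 to 98.3 CPM against 34.9 to 53.9 CPM (-0.67, adjusted p = 0.113), and Tnf was at 0 to 6.62 CPM and Il1b at 0 to 4.21 CPM in all libraries. No inducer was called in the other 3 comparisons of 2 groups or in the interaction.

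Markers of other cell types moved between the SD groups beside the chemokines. All 6 mesothelial markers had higher values in Mof+/- WAT and 4 were called, namely Upk1b (log2 fold change 4.81), Upk3b (3.46), Msln (3.42) and Wt1 (1.86), with a list median of 3.44 and sums of 23.8 to 59.1 CPM in Mof+/+ and 170 to 349 CPM in Mof+/- libraries. All 6 endothelial markers had lower values and 5 were called, among them Vwf (-3.70), Cdh5 (-3.07), Tie1 (-2.86) and Pecam1 (-2.38), with a median of -2.62 and sums of 1018 to 2594 CPM against 144 to 271 CPM. Of 7 adipocyte markers Pck1 (2.71), Fabp4 (1.79), Cidec (1.61) and Adipoq (1.53) were called as higher, 4 in all (median 1.53). Of 15 macrophage markers 3 were called as higher, the complement genes C1qa (1.40), C1qc (1.26) and C1qb (1.21), with a median of 0.52. Of 7 fibroblast and progenitor markers Pi16 was called as higher and Pdgfrb as lower, and of 5 glia and myelin markers tested Cldn11, Mobp and Slc1a2 were called as lower. The T and NK, B and plasma, neutrophil, eosinophil, mast cell, dendritic and skeletal muscle lists had none called, and none of 9 ovary, epididymis and testis markers passed the filter. Their part in the differences of Ccl2, Ccl11, Ccl6 and Ccr2 was not tested. In the Mof+/+ diet comparison, the mast cell markers Mcpt4 (log2 fold change 5.12), Cma1 (4.64) and Tpsb2 (4.41) rose. Ighm (2.40), the eosinophil gene Ear2 (1.78) and the leptin gene Lep (2.30) rose as well, 1 gene each of their lists. Of 6 B and plasma markers tested, however, 4 had values below 0 (list median -1.50), as did 4 of 7 adipocyte markers (median -0.12). Of 5 mast cell markers 4 had values above 0 (median 4.41), as had the 2 eosinophil markers tested (median 1.59). The endothelial genes Vwf (-2.71), Kdr (-1.90) and Cdh5 (-1.56) and the glia and myelin genes Mobp, Cldn11 and Slc1a2 fell. No cell type marker was called in the 2 comparisons with HFD Mof+/- libraries. In both, however, all 9 skeletal muscle markers tested were higher in the HFD Mof+/- libraries without overlap and with an unadjusted p under 0.05 (median log2 fold change 11.96 by genotype and 11.02 by diet). They summed to 56175 and 1360 CPM there, against 10.9 to 89.7 CPM in the other 8 libraries, and their part in the values of the members was not tested. For cell type markers, the interaction called 1, Itgam (log2 difference -5.27, adjusted p = 0.00669), which stood at 88.2 and 136 CPM in HFD Mof+/+ and at 4.79 and 4.70 CPM in HFD Mof+/- WAT.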

How the data were processed

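mRNA of visceral WAT from 10 mice was sequenced with paired-end reads (Illumina TruSeq RNA Sample Prep v2). The raw counts per gene that the authors deposited for each library came from their snakePipes workflow, in which STAR aligned reads to GRCm38 (mm10) and featureCounts (Subread 1.5.0-p1) counted them; they are not normalized. The annotation release was not given in the sources used here. Of 47937 identifiers, 47224 were matched to GENCODE M21 with the version dropped. CPM divides each count by its library total. Levels and overlaps of groups use CPM, while log2 fold changes include the TMM scaling of the tests, so the 2 can differ. The total, from 1044355 to 17171947, set the precision, with a floor of 3 counts and exact Clopper-Pearson 95% intervals, which cover counting error only.

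Groups followed the sample labels. Each test between 2 groups used the quasi-likelihood method of edgeR 4.0.16 on those libraries alone, after TMM scaling and a filter on low counts (filterByExpr by group), with Benjamini-Hochberg adjustment over all genes tested and a threshold of 0.05. The interaction was fitted on all 10 libraries. The steps were tested on simulated counts. All 10 members were to be named in every comparison, and, apart from results left out, from each of 5 lists of related genes and 14 lists of cell type markers up to 4 genes of largest change among those called, or up to 3 with the highest mean CPM where none was. Ccl12, Ccr3, Ccr7, Cxcl1, Tnf, Il1b, Cd3e, Cd8a, Ms4a1, Cd163, Csf1r, Adgre1 and Marco were named after their values were seen. Some results on single genes are left out; list counts include every gene of the list. Likeness is Pearson's r of log2 CPM (TMM, prior count 1). Members and lists were chosen with earlier results of these data known. Alternatives were DESeq2 1.42.0, its size factors, other filters, the column headings, the replicate number, a transcript length offset, a scaling without muscle and mitochondrial genes, 1 fit of all libraries, and libraries left out. Computation used R 4.3.3 and Python 3.11.15.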

Additional observations from a re-analysis of the deposited data

Results flagged for a closer look

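The difference between genotypes ran in opposite directions on the 2 diets for 4 members. For each, all 3 SD Mof+/- libraries lay above all 3 SD Mof+/+ libraries, and both HFD Mof+/- libraries lay below both HFD Mof+/+ libraries. Of all genes tested, 9.71% were higher without overlap on SD and 45.6% lower without overlap on HFD, where no member was called. These 4 were picked for this pattern, which fixes the sign of their interaction, so the sign is no support for it. The log2 difference between the diet responses was -6.45 for Ccl2 (interval -8.90 to -3.99, adjusted p = 0.0780), -4.83 for Ccl7 (-8.04 to -1.62, adjusted p = 0.247), -3.05 for Ccl11 (-4.08 to -2.02, adjusted p = 0.0453) and -2.80 for Ccl6 (-3.77 to -1.83, adjusted p = 0.05003). Only Ccl11 passed the threshold. On SD, sex differed with genotype, and on HFD 1 of the 2 Mof+/- libraries had 1044355 counts and 0 counts of Ccl2 and Ccl7; the part of either was not tested. With 2 or 3 libraries a group, no test for outlying values was made.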

How the results depend on the processing

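Counts of members called moved as follows. With the column headings as groups 0 members were called on SD, 0 for the Mof+/+ diet and 0 for the interaction, as were 0 of all genes tested in each. By genotype on SD, 4 members and 5.24% of all genes were called. DESeq2 and the lack of a filter gave 6 each (adding Ccl7 and Ccl8), beside 13.9% and 8.35% of all genes. A minimum of 10 counts in every library gave 5 (adding Ccl7), beside 11.2%, and a fit of all libraries 3 (without Ccl2), beside 1.22%. The length offset (fitted on genes with at least 10 counts in every library compared) left 2, beside 2.37%. Single libraries left out gave 0 to 5, beside 0.115% to 6.89%. By genotype on HFD, where 0 were called, DESeq2 called 1, beside 1.37% of all genes, and the replicate block 3, beside 1.42%. For the diet in Mof+/+ WAT, 6 were called, 4 in a fit of all libraries (without Ccl7 and Ccl8), and 4 to 7 with a library left out, and in Mof+/- WAT 0, and 0 to 1. For the interaction, where 1 was called, DESeq2 and the lack of a filter on low counts gave 5 each, beside 3.35% and 1.62% of all genes. A minimum of 10 counts in every library gave 2, beside 0.538%. DESeq2 size factors, the replicate block and the length offset gave 0 each. So did the exclusion of any 1 SD library or of both SD libraries numbered 3 (chosen after seeing the data). Where 1 library remained in a group, it was assumed to vary like the other groups. The median log2 value of all genes in the interaction was -0.41, and -0.31 with DESeq2 size factors.

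Over all genes, DESeq2 called 2204 genes by genotype on SD (edgeR 727), 198 on HFD (0), 2998 by diet in Mof+/+ WAT (1457), 477 in Mof+/- WAT (0) and 505 in the interaction (14). Without a filter the numbers were 1840, 0, 1759, 429 and 380, and with at least 10 counts in every library 1235, 0, 1987, 26 and 38. With a library left out they ran from 17 to 1026, 92 to 7551, 64 to 2230, 0 to 2122 and 4 to 3163. The length offset gave 328 on SD, and a fit of all libraries 194, 1, 142 and 189 in the 4 comparisons of pairs. The causes were not tested.

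Signs turned only in members that were not called, with the exception of Ccl2 on SD under the column headings (-0.19). The headings also turned Ccl7 (-0.64), Ccl8 (-1.13) and Ccl5 (1.21) on SD, Ccl5 for the Mof+/+ diet (0.19), Ccl7 (0.83) and Ccl5 (-0.87) for the Mof+/- diet, and Ccl8 (0.98) and Ccl5 (-1.10) in the interaction. On HFD, Ccl4 was -0.56 with the replicate block and -0.20 with the length offset, and Ccl5 was -0.37 with the offset. Without single libraries, Ccl5 ran from -3.55 to 0.98 on SD, and on HFD Ccl8 from -0.27 to 0.079, Ccl4 from -7.60 to 1.13 and Ccl5 from -0.26 to 0.54. For the Mof+/+ diet Ccl5 ran from -1.63 to 1.40, and was 1.37 with the replicate block and 1.40 without both SD libraries numbered 3. For the Mof+/- diet Ccl7 ran from -11.02 to 0.61 (0.48 without both SD libraries numbered 3), Ccl8 from -0.39 to 1.33 and Ccl5 from -0.028 to 2.50. In the interaction Ccl4 ran from -7.51 to 1.03 and Ccl5 from -0.88 to 3.65.

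Replicate numbers are shared between groups in the labels, and the libraries were not treated as pairs. On SD the deviations from group means of equally numbered libraries correlated by 0.0053 to 0.0077. All other pairs of equal number lay between -0.043 and 0.032. In a group of 2 libraries the deviations mirror each other, so these values cannot show whether libraries were paired. With the replicate block, 3 members were called by genotype on SD (Ccl7, Ccl11 and Ccl6), beside 3.09% of all genes. For the Mof+/+ diet 6 were called, beside 9.77%, and for the Mof+/- diet 0, beside 1.8%. Genes called numbered 428 on SD, 200 on HFD, 1460 for the Mof+/+ diet, 245 for the Mof+/- diet and 10 in the interaction. CPM after TMM moved the mean level by over 1 SD in 2 of 40 pairs of gene and group, Ccl2 (5.81 CPM) and Ccl11 (40.6 CPM) in SD Mof+/+. Depth limits Ccl3 and Ccl4, and every level in the shallow HFD Mof+/- library.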
